A study of Mus musculus with 12 samples.

Results

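The genes described here make the proteins of the complement and coagulation systems of blood plasma: fibrinogen, the clotting proteases and their inhibitors, the lectins and proteases that start complement, and the pore-forming components. The list held 37 genes, chosen by name. Where a gene had several probe sets, the one with the greatest average over all 12 arrays was taken. A probe set was matched for 35 of the 37 genes, out of 17097 genes measured, and all 35 were among the 13073 genes tested. C3, the hub of the complement cascade, and Cpb2 were not analysed here.

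Male BALB/c mice aged 10 weeks gave the organs, brain and liver, which were profiled on Affymetrix mouse arrays at 3 times after death. The times were 0 h, 3 h with the body kept at room temperature, and 18 h with the body kept at 4 °C. At each time, pieces of each organ were either immersed in RNAlater and frozen (FF) or fixed in 10% formalin for 24 h, embedded in paraffin, held as blocks for 7 d and sliced at 10 µm (FFPE). FF RNA was labelled with a GeneChip 3'IVT Express kit and FFPE RNA with a NuGEN WT-Ovation FFPE kit, so preservation and labelling kit cannot be told apart, and neither can time and storage temperature. Each of the 12 conditions had 1 array, and the number of animals and the region of brain are not given. A time effect was therefore tested, with limma, as a change common to both preservations of that organ, and its error is the spread between these arrays, which may be technical.

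Most of these proteins are made by hepatocytes and secreted into plasma as inactive precursors. In coagulation, a chain of proteases ends in thrombin, which cuts fibrinogen into fibrin, while serpins such as antithrombin hold the proteases in check and plasmin dissolves the clot. In complement, mannose-binding lectins or the C1 complex activate proteases that cleave C4, and the cascade ends in a pore built from the terminal components. Some members are also made outside hepatocytes, properdin (Cfp) by leukocytes and protein S (Pros1), vitronectin (Vtn) and C4b by several cell types.

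Values are log2 intensities, so a difference of 1 is a 2-fold change, and levels of different genes cannot be compared because each comes from its own probes. The median of an array was between 4.65 and 4.68 for FF and between 4.8 and 4.89 for FFPE. A gene was kept for testing if 3 or more arrays had it at their median or higher. All 35 members met this in all 6 liver arrays, and 22 of them passed through liver alone. The tissue labels matched the markers measured: the summed level of 6 neuron genes was 12.99 to 13.65 in brain arrays against 7.32 to 8.07 in liver arrays. In a whole piece of tissue, fewer cells of a type and less RNA per cell cannot be told apart.

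The 3 fibrinogen chain genes lie side by side on mouse chromosome 3, in the order Fgg, Fga, Fgb. In GRCm38.p6 the distance from Fgg to Fga is 11.1 kb and from Fga to Fgb 8.6 kb. Their products form a single hexameric protein, and their promoters are shown because the chains are among the members with the widest liver to brain difference. Each sequence is the 250 bases before the RefSeq transcription start, read in the direction of the gene: Fgg at chr3:83007474-83007723 (+), Fga at chr3:83025903-83026152 (+) and Fgb at chr3:83049864-83050113 (-). Capitals mark matches on either strand to GTTAAT, a half-site of the hepatocyte factor HNF1 (here in its reverse complement, ATTAAC), and to CTGGGA, the core of the interleukin-6 response element.
Fgg: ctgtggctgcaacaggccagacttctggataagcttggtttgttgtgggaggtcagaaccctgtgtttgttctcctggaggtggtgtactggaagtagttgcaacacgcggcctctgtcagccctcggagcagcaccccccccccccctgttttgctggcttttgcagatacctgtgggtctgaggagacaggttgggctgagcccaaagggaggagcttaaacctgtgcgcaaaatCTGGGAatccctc
Fga: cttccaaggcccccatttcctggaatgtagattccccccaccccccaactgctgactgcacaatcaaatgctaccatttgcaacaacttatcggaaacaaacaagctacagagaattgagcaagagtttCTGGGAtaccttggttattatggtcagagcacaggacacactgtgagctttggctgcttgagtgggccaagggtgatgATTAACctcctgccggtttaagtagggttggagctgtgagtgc
Fgb: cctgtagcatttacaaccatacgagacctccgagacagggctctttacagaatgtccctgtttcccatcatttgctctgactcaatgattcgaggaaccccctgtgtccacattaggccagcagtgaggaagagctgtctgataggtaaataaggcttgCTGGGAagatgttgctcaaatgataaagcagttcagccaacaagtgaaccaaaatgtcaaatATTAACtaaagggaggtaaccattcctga
The HNF1 half-site match lay at bases -43 to -38 of Fga and -29 to -24 of Fgb, with none in this window of Fgg. CTGGGA lay at -121 to -116 of Fga, -91 to -86 of Fgb and -13 to -8 of Fgg. RefSeq promoters of 29 of the 37 genes were searched, 31 promoters in all. The other genes of the list were left out of these counts, whether or not RefSeq holds a promoter for them. GTTAAT was present in 7 of the 31 (22.6%), against 6.43% of 32851 mouse promoters of that length, and CTGGGA in 13 (41.9%) against 27%. A STAT pattern, TTCNNNGAA, which can contain CTGGGA, was present in 6 (19.4%) against 7.02%. The C/EBP palindrome TTGCGCAA and the HNF4 site CAAAGTCCA were found in 0 of the 31, against 0.164% and 0.384% of all promoters. Both strands were searched, and a match is a description of the letters, not of binding.

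Liver carried these transcripts at far higher level than brain, at every time and in both preservations. Every liver array lay above every brain array for 34 of the 35 members. The share of all genes separated in this way was not counted, so nothing is read about the set from that count. Over all genes tested, 74.1% were called in FF (36.5% higher in liver) and 63.5% in FFPE (34.5% higher in liver), but the members that were kept through liver alone had to differ, so their count is no evidence about the set. The FF difference had a median of 6.21 over the members and ran from 0.52 for Cfp to 8.01 for Fgb. In FFPE the median was 5.49, from 0.63 for Cfp to 8.17 for Fga. The widest FF differences were Fgb at 8.01 ± 0.18, Kng1, the kininogen, at 7.96 ± 0.11, Fgg at 7.82 ± 0.17 and Plg, plasminogen, at 7.80 ± 0.18 (SE, limma, adjusted p = 1.84e-13, 4.14e-14, 1.56e-13 and 3.48e-13). In FFPE they were Fga at 8.17 ± 0.23, Fgg at 7.81 ± 0.17, F2 at 7.75 ± 0.21 and Kng1 at 7.39 ± 0.11 (adjusted p = 2.73e-12, 2.36e-13, 1.7e-12 and 6.49e-14). Of these genes, Kng1, Fgg, Plg, Fga and F2 were kept through liver alone, so their p-values are no evidence of a difference either. Where a member lay below the array median in brain, its difference rests on a brain value near background.

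**Figure D1:**
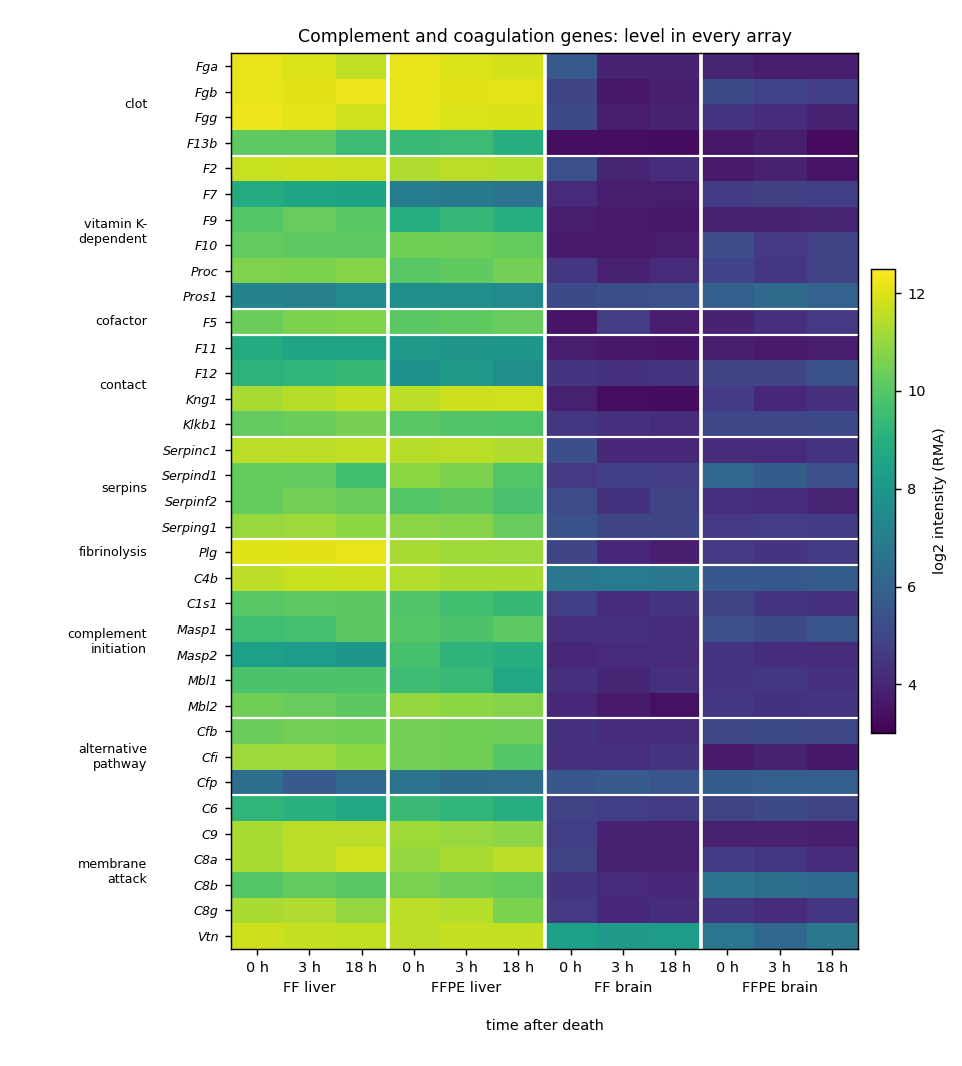
Log2 intensity of the 35 members (rows, grouped by role) in each of the 12 arrays (columns, by tissue, preservation and hours after death), 1 array per column. Liver columns are bright for nearly all rows, while Cfp and Pros1 differ least between tissues.

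Fibrinogen, the substrate of the clot, illustrates the contrast. Fga, the alpha chain, measured 12.13, 11.99 and 11.59 in FF liver at 0, 3 and 18 h and 12.17, 12 and 11.84 in FFPE liver. In brain it measured 5.66, 3.95 and 3.92 in FF and 3.97, 3.76 and 3.78 in FFPE. The tissues did not overlap, and the highest brain array was FF at 0 h.
Fgb, the beta chain, measured 12.14, 12.09 and 12.25 in FF liver and 12.16, 12.06 and 12.10 in FFPE liver, against 5.0, 3.66 and 3.78 in FF brain and 5.12, 4.92 and 4.77 in FFPE brain. Fgg, the gamma chain, measured 12.25, 12.12 and 11.81 in FF liver and 12.14, 11.95 and 11.92 in FFPE liver, against 5.08, 3.74 and 3.91 in FF brain and 4.48, 4.22 and 3.87 in FFPE brain. Again no brain array came near a liver array, and among FF brain arrays the 0 h array was the highest for all 3 chains. The FF liver to brain difference was 7.39 ± 0.82 for Fga, 8.01 ± 0.76 for Fgb and 7.82 ± 0.61 for Fgg (SD over the 3 times, n = 3).

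F2, prothrombin, measured 11.69, 11.78 and 11.74 in FF liver and 11.36, 11.51 and 11.44 in FFPE liver. Its brain values were 5.31, 3.97 and 4.20 in FF and 3.67, 3.87 and 3.52 in FFPE. Liver values were nearly flat over time, and the FF brain array at 0 h stood above the other brain arrays.
Serpinc1, antithrombin, the main inhibitor of thrombin, measured 11.52, 11.54 and 11.60 in FF liver and 11.48, 11.52 and 11.37 in FFPE liver, against 5.29, 4.10 and 4.09 in FF brain and 4.19, 4.12 and 4.45 in FFPE brain. The pattern was that of F2, with level liver values and a single high brain array. C9, which forms the ring of the membrane attack pore, measured 11.28, 11.52 and 11.53 in FF liver and 11.14, 11.05 and 10.84 in FFPE liver, against 4.78, 3.93 and 3.83 in FF brain and 3.85, 3.88 and 3.78 in FFPE brain. Its liver arrays moved in opposite directions over time in FF and FFPE, within a range smaller than its distance to brain.

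The mannose-binding lectins recognise sugars on microbes. Mbl1 measured 9.81, 9.83 and 9.86 in FF liver and 9.55, 9.43 and 8.69 in FFPE liver, against 4.30, 4.02 and 4.33 in FF brain and 4.47, 4.5 and 4.37 in FFPE brain. Mbl2 measured 10.43, 10.30 and 10.11 in FF liver and 10.99, 10.89 and 10.75 in FFPE liver, against 4.08, 3.67 and 3.44 in FF brain and 4.55, 4.39 and 4.44 in FFPE brain. Both lectins were liver genes at every time, and the lowest liver value of Mbl1 was the FFPE array at 18 h.

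Properdin, which stabilises the alternative pathway convertase, was the exception. Cfp measured 6.45, 5.74 and 6.17 in FF liver and 6.67, 6.37 and 6.38 in FFPE liver, against 5.57, 5.74 and 5.49 in FF brain and 5.82, 5.86 and 5.85 in FFPE brain. Its lowest liver array lay below its highest brain array, and at 3 h the FF tissues had the same value. Averaged over times the liver difference was 0.52 ± 0.12 (SE) in FF (limma, adjusted p = 0.00196) and 0.63 ± 0.12 in FFPE (adjusted p = 0.00055).

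Counts against the array median separated the members in brain. 10 members lay below it in all 6 brain arrays, 12 reached it in 1 or 2, and 13 in at least 3. Pros1, C4b, Cfp and Vtn reached it in all 6. Vtn, a cell adhesion protein that also keeps the pore from inserting, measured 8.36, 8.09 and 8.21 in FF brain and 6.72, 6.16 and 6.75 in FFPE brain. C4b, the substrate of the lectin and classical pathway proteases, measured 6.82, 6.93 and 6.80 in FF brain and 5.6, 5.63 and 5.77 in FFPE brain. For both genes every FF brain array stood above every FFPE brain array. Pros1, a cofactor of activated protein C, had liver to brain differences of 2.07 ± 0.21 in FF and 1.60 ± 0.22 in FFPE (SD, n = 3 times). The C4b probes cannot be assumed to tell it from its near-identical copy C4a, nor those of C1s1 and Kng1 from C1s2 and Kng2.

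The liver to brain difference was smaller in FFPE for 25 members and larger for 10. A test of the difference called 18 members smaller and 3 larger in FFPE (60%, against 54.9% of all genes tested, 36.4% larger and 18.5% smaller). Since 22 members were kept through liver alone and lay near background in brain, nothing is read from that count. F7, factor VII, which starts clotting together with tissue factor, had the lowest value: its liver to brain difference was 4.76 ± 0.12 in FF and 2.08 ± 0.25 in FFPE (SD, n = 3 times), or -2.69 ± 0.18 (SE, limma, adjusted p = 2.32e-07). F12, the starter of the contact pathway, changed by -1.99 ± 0.20 (adjusted p = 4.32e-06), and C8b, a chain of the pore component C8, by -1.91 ± 0.17 (adjusted p = 1.68e-06).
F9, the factor lost in haemophilia B, changed by -1.32 ± 0.16 (adjusted p = 1.81e-05). F7 and F9 lay below the array median in all 6 brain arrays, so the brain side of their values is a background level. F12 and C8b lay below it in every FF brain array. FFPE against FF was 0.35 in liver and 2.26 in brain for C8b, and -1.34 and 0.65 for F12. The 3 members with a larger difference in FFPE were Vtn at 1.61 ± 0.18 (adjusted p = 9.48e-06), Masp2 at 0.91 ± 0.18 (adjusted p = 0.00119) and C4b at 0.85 ± 0.17 (adjusted p = 0.00107). The direction for Masp2 depended on the probe set: with the mean of its probe sets it was -1.04 (adjusted p = 0.000152), and it too was below the median in all brain arrays. After quantile normalization C4b was no longer called (0.36, adjusted p = 0.0998), Vtn was 0.83 and F9 -0.86, the split was 5 larger and 10 smaller, and the median of all genes moved by -0.188.

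**Figure D2:**
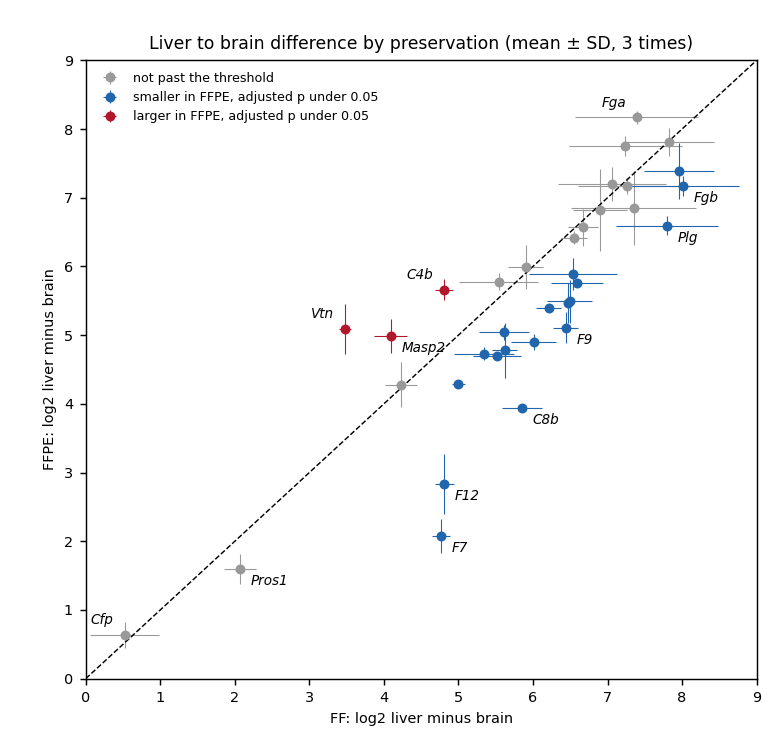
Liver minus brain difference of each member in FF (x axis) and FFPE (y axis), both in log2 units, as mean ± SD over the 3 times, with the dashed line at equality. F7, F12 and C8b lie farthest below the line, and Vtn, Masp2 and C4b above it.

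In liver, none of the 35 members passed the test at 3 h (0 of 35, against 0.245% of all genes tested, 32 genes, 0.0765% higher and 0.168% lower). An unadjusted p under 0.05 (limma) was reached by 3 members, against 1206 of the 13073 genes tested. The members' median change was -0.01 and that of all genes -0.005. The widest was that of Cfp at -0.51 ± 0.15 (limma, adjusted p = 0.26), made up of -0.71 for FF and -0.30 for FFPE. Markers of Kupffer cells, the liver macrophages, moved with it: 4 of 9 tested were lower at 3 h, with a median of -0.84 and none higher. Their summed level was 10.75, 9.73 and 10.64 in FF liver at 0, 3 and 18 h and 10.12, 8.89 and 9.53 in FFPE liver, and their part in the Cfp values was not tested. Of 9 sinusoidal endothelial markers none passed the test at 3 h, with a median of -0.55. F9 measured 0.37 ± 0.13 higher at 3 h (adjusted p = 0.411), and Masp2 measured -0.35 ± 0.16 (adjusted p = 0.535), neither past the threshold.

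By 18 h at 4 °C, 5 members had fallen in liver and none had risen. That is 14.3% of the members, against 14.5% of all genes called in either direction, 3.61% higher and 10.9% lower, so the share was near the background. Serpind1, heparin cofactor II, another serpin inhibitor of thrombin, measured 10.26, 10.21 and 9.63 in FF liver and 10.87, 10.61 and 9.97 in FFPE liver, and fell by 0.77 ± 0.19 on the log2 scale (SE, limma, adjusted p = 0.018). C8g, the lipocalin chain of C8, measured 11.28, 11.38 and 10.97 in FF liver and 11.57, 11.45 and 10.62 in FFPE liver, and fell by 0.63 ± 0.17 (adjusted p = 0.0271). For both genes the 18 h array was the lowest in each preservation.
Masp2, the lectin pathway protease, measured 8.37, 8.25 and 7.99 in FF liver and 9.75, 9.17 and 8.94 in FFPE liver, and fell by 0.60 ± 0.16 (adjusted p = 0.0255). C6, an early component of the pore, measured 9.22, 9.07 and 8.69 in FF liver and 9.48, 9.25 and 8.91 in FFPE liver, and fell by 0.55 ± 0.14 (adjusted p = 0.0195). Both declined from 0 to 3 to 18 h in each preservation. F13b, the carrier subunit of the fibrin cross-linking factor XIII, measured 10.16, 10.13 and 9.51 in FF liver and 9.41, 9.53 and 9.01 in FFPE liver, and fell by 0.53 ± 0.15 (adjusted p = 0.0349). Its 0 h and 3 h arrays lay close together and its 18 h arrays apart from them in each preservation.

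No call at 18 h stood without the 0 h FFPE liver array (0 members). There were 2 (C8g and Masp2) without the 0 h FF liver array, 1 (F13b) without the 18 h FFPE liver array, and 1 (Serpind1) from the 6 liver arrays alone. After quantile normalization C8g alone of the 5 was still called lower, C8a was called higher, and C6, F13b and Masp2 measured -0.34, -0.35 and -0.36. C8g measured -0.41 without the 0 h and -0.36 without the 18 h FFPE liver array, and Masp2 -0.37 without the 0 h FFPE liver array. The 3' to 5' signal difference of the Gapdh control probes moved with these times: 0.03, 0.82 and 1.14 in FF liver and 1.04, 1.63 and 1.77 in FFPE liver, while that of Actb was 1.09, 2.0 and 1.9 in FF liver and -0.12, -0.01 and -0.18 in FFPE liver. Cell type markers moved as well: 4 of 9 sinusoidal endothelial markers were higher at 18 h (median 0.465) and 2 of 3 erythroid genes, while 1 of 9 Kupffer markers and 3 of 9 acute phase proteins were lower and 0 of 17 hepatocyte markers were called (median -0.05). The part of these in the falls was not tested.

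C8a, the pore-penetrating chain of C8, moved the other way. It measured 11.28, 11.55 and 11.83 in FF liver and 10.99, 11.29 and 11.55 in FFPE liver, a change of 0.55 at 18 h in FF and 0.56 in FFPE. The 18 h array was the highest in each preservation, but the fitted change of 0.55 ± 0.18 did not pass (adjusted p = 0.0654), except after quantile normalization, where it was 0.62 (adjusted p = 0.0438). It also passed without any of the 0 h or 3 h brain arrays (adjusted p = 0.0402 without either 0 h array and 0.0428 without either 3 h array). The 3 chains of C8 thus had separate values at 18 h in liver, 0.55 for C8a, -0.15 ± 0.15 for C8b (adjusted p = 0.593) and -0.63 for C8g, though C8a and C8b lie 11.1 kb apart on chromosome 4. Fibrinogen also had no shared call: Fga measured -0.44 ± 0.28, Fgg -0.33 ± 0.21 and Fgb 0.03 ± 0.22 (adjusted p = 0.37, 0.344 and 0.962).

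The preservations often disagreed in sign at 18 h. In liver 14 members were lower in both, 7 higher in both, and 13 higher in FF and lower in FFPE, with 1 the reverse. The same split was not counted over all genes, so nothing is read about the members from it. The median of the members was 0.05 in FF and -0.20 in FFPE, beside -0.02 and -0.04 for all genes. Mbl1 is an example, with 0.05 in FF and -0.86 in FFPE. With the probe set used for each gene, no member reached a 2-fold change in any single pair of liver arrays. The largest was 0.95 for C8g in FFPE at 18 h. A further Masp1 set passed that size between 0 and 18 h, from 8.09 to 9.21 in FF liver and from 6.70 to 7.82 in FFPE liver. At 3 h, 0.13% of all genes were at least 2-fold higher and 0.344% lower in FF liver, and 0.252% and 0.291% in FFPE liver. At 18 h, 1.22% of all genes were at least 2-fold higher and 2.75% lower in FF liver, and 0.306% and 4.44% in FFPE liver. Over the 3 times a member's liver range had a median of 0.30 in FF, from 0.05 for Mbl1 to 0.71 for Cfp, and 0.31 in FFPE, from 0.09 for Cfb to 0.95 for C8g.

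**Figure D3:**
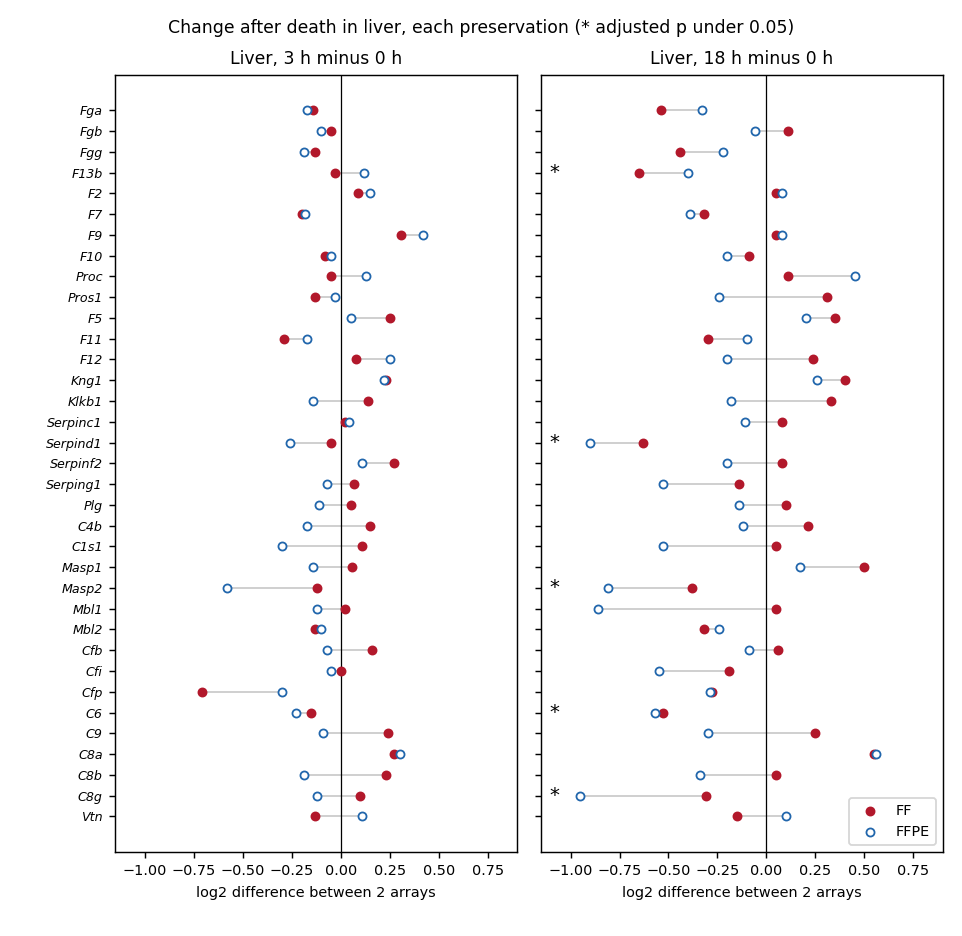
Change of each of the 35 members in liver at 3 h and at 18 h against 0 h (x axis, log2 units), as the difference between single FF arrays (filled) and single FFPE arrays (open). The 5 members with an asterisk passed the test at 18 h, all of them lower in both preservations.

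Between 3 h and 18 h in liver, 2 members fell (5.71%, against 10.3% of all genes, 2.76% higher and 7.58% lower). F13b fell by 0.57 ± 0.15 on the log2 scale (adjusted p = 0.0315) and C8g by 0.62 ± 0.17 (adjusted p = 0.0374). Neither was called after quantile normalization, from the 6 liver arrays alone, or without either of the 3 h liver arrays, and only F13b was called without the 18 h FFPE liver array or either 3 h brain array. Without either 0 h brain array both were lost and Serpind1 was called in their place. F13b and Serpind1 were called without either 18 h brain array, and F13b alone without the filter. Without the 18 h FF liver array the calls were C8g (-0.88) and Mbl1 (-0.77). Between these times 8 of 9 sinusoidal endothelial and 6 of 9 Kupffer markers were higher and 4 of 9 acute phase proteins lower, and their part was not tested.

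The 2 genes of the lectin pathway proteases each have several probe sets, and these did not move together in liver. Masp1 and Masp2 both give rise to different products through alternative transcripts, and which transcript each probe set reads is not given. The comparison of single probe sets was added after the data had been seen, with adjustment over 29688 probe sets. The Masp1 set used above measured 9.60, 9.66 and 10.10 in FF liver and 9.98, 9.84 and 10.15 in FFPE liver, a change of 0.33 ± 0.15 at 18 h (adjusted p = 0.176). A further Masp1 set measured 8.09, 7.99 and 9.21 in FF liver and 6.70, 6.90 and 7.82 in FFPE liver, and rose by 1.12 ± 0.18 (adjusted p = 0.00251). In the latter set the 18 h array stood clear of the earlier arrays in each preservation.
The other Masp1 sets measured 0.90 ± 0.14 (adjusted p = 0.0021), 0.87 ± 0.23 (adjusted p = 0.0288) and 0.00 ± 0.18 (adjusted p = 0.988), the last of them below the array median in every liver array. For Masp2, the set used above fell by 0.60 ± 0.16 (adjusted p = 0.0296), and the other set, at 7.85, 8.27 and 8.49 in FF liver and 7.35, 7.88 and 7.72 in FFPE liver, rose by 0.50 ± 0.15 (adjusted p = 0.0414). With the mean of all probe sets per gene, Masp1 was called higher at 18 h (0.65, adjusted p = 0.0069) and Masp2 was not called (-0.05, adjusted p = 0.845).

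**Figure D4:**
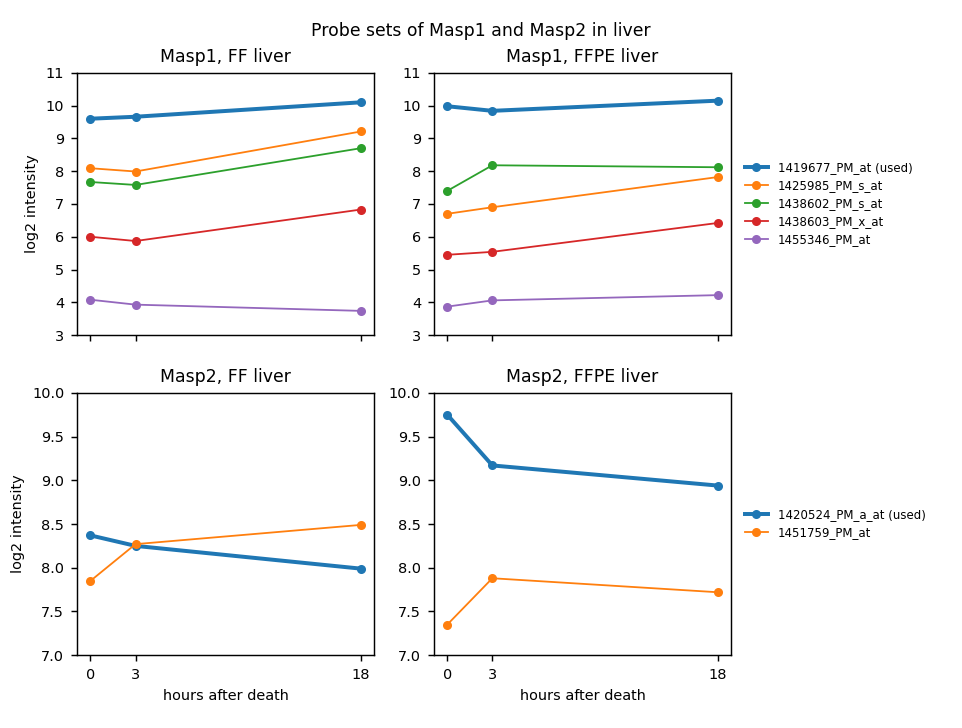
Log2 intensity of each probe set of Masp1 (top) and Masp2 (bottom) in FF and FFPE liver against hours after death, 1 array per point. The thick line is the set used for the gene: the Masp2 lines run in opposite directions, and the lowest Masp1 line ends below its 0 h value in FF and above it in FFPE while the other Masp1 lines end above it in both.

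In brain, no member passed the test at 3 h (0 of 35, against 0.0765% of all genes, 10 genes, 0.0459% higher and 0.0306% lower) or at 18 h (0 of 35, against 0.0306%, 4 genes, 0.00765% higher and 0.0229% lower). An unadjusted p under 0.05 (limma) was reached by 14 members at 3 h and 11 at 18 h, against 684 and 494 of the 13073 genes tested. The FF array at 0 h nevertheless stood apart for some members. It was the highest of the 3 FF brain arrays for 25 of 35 members, and the FFPE array at 0 h was the highest of its 3 for 14. The share of all genes was not counted, so nothing is read from these counts. Members at or above the array median numbered 16, 8 and 8 in FF brain at 0, 3 and 18 h and 14, 12 and 11 in FFPE brain.
Fga, Fgb, Fgg, F2, Serpinc1 and C8a were at least 2-fold higher at 0 h than at each later time in FF brain, by 1.71 and 1.74 for Fga, 1.34 and 1.22 for Fgb and 1.34 and 1.17 for Fgg. The values for the others were 1.34 and 1.11 for F2, 1.19 and 1.2 for Serpinc1 and 1.06 and 1.00 for C8a. Plg passed that size at 18 h alone, by 1.2. At least 2-fold lower values were thus found in 6 members at 3 h and 7 at 18 h, against 0.352% and 0.329% of all genes. In FFPE brain the same differences were 0.61 at most among these genes, for Fgg at 18 h, and none of the 35 members reached 2-fold, against 0.0459% of all genes higher and 0.138% lower at 3 h and 0.0306% and 0.107% at 18 h.
F5, the cofactor of factor X, was the only member at least 2-fold higher at 3 h in FF brain, against 0.214% of all genes (0 members at 18 h, against 0.0535%). It measured 3.54, 4.74 and 3.77 there. Its later arrays did not keep that value, and its second probe set measured 4.46, 4.71 and 4.37.

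**Figure D5:**
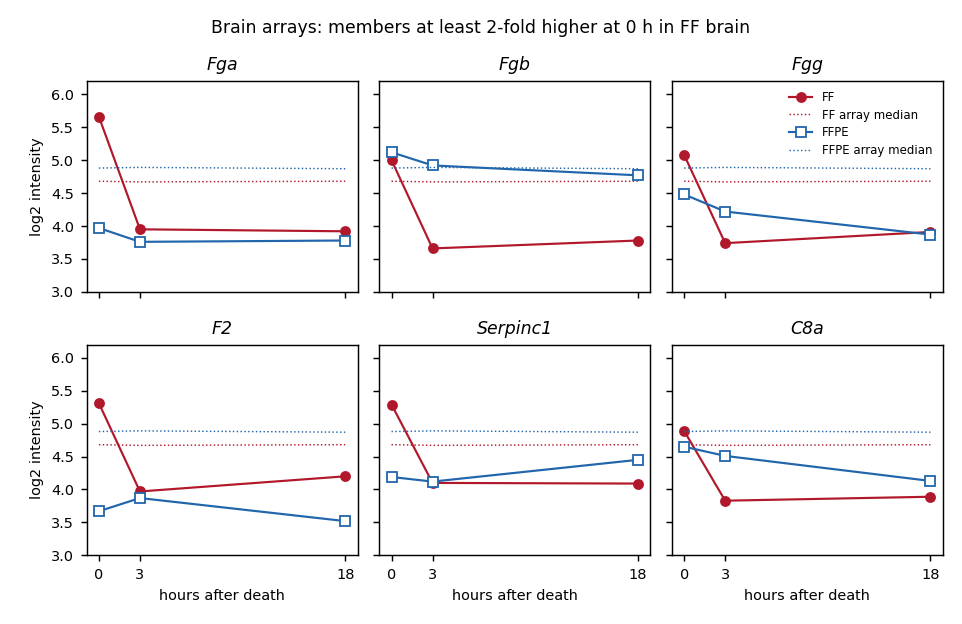
Log2 intensity of 6 members in FF brain (filled) and FFPE brain (open) against hours after death, 1 array per point, with dotted lines at the array medians. The FF array at 0 h is at or above 4.89 for all 6 and the later FF arrays are at or below 4.20, while FFPE values change by at most 0.61.

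Of 18 hepatocyte markers measured, 11 were at least 2-fold lower at 3 h and 11 at 18 h, with medians of -1.87 and -1.96. In FFPE brain 4 and 3 of them were, with medians of -0.42 and -0.49. Alb, albumin, measured 8.74, 6.11 and 5.53 in FF brain and 7.57, 7.03 and 7.06 in FFPE brain, and Apoa1, the main protein of HDL, 6.91, 4.78 and 4.63 in FF brain and 6.79, 5.41 and 5.59 in FFPE brain. Ttr, which the choroid plexus also makes, went the other way, at 8.68, 12.72 and 12.21 in FF brain, and Apob was nearly level at 4.0, 4.15 and 4.11. The 7 choroid plexus markers, Ttr included, had FF medians of 1.63 at 3 h and 0.66 at 18 h and FFPE medians of 0.37 and 0.12. Among them Kcnj13, a potassium channel, measured 4.94, 7.05 and 5.6 in FF brain. Because Ttr dominates it, the summed level of the hepatocyte markers was 11.84, 12.86 and 12.39 in FF brain and 9.97, 12.65 and 12.21 in FFPE brain. The part of these transcripts in the members' 0 h values was not tested.

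The brain result rested on single arrays. Without the 0 h FFPE brain array, 3 members were called lower at 3 h, Fga at -1.72 (adjusted p = 0.00193), Fgb at -1.27 (adjusted p = 0.0191) and Serpinc1 at -1.27 (adjusted p = 0.0239). Likewise, at 18 h, Fga at -1.73 (adjusted p = 0.00177), Fgb at -1.29 (adjusted p = 0.0212) and Fgg at -1.30 (adjusted p = 0.0472) were called. Without the 0 h FF brain array none was called at either time.

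The change at 3 h differed between liver and brain for none of the members (0 of 35, against 0.0153% of all genes, 2 genes, 0.00765% higher and 0.00765% lower). At 18 h it differed for C8a (1 of 35, 2.86%, against 4.48% of all genes, 0.52% higher and 3.96% lower in liver). The C8a difference was 1.31 ± 0.26 (limma, adjusted p = 0.0158), or 1.55 between FF arrays and 1.08 between FFPE arrays. Its brain values were 4.89, 3.83 and 3.89 in FF and 4.65, 4.51 and 4.13 in FFPE, so the 18 h arrays lay above the 0 h arrays in liver and below them in brain, and the latter included the high 0 h FF array. C8a reached the array median only in the 0 h FF brain array, so the brain side of its difference lay near background. The call was absent without the 0 h FF, 18 h FF or 18 h FFPE brain array. Without the 0 h FFPE brain array 3 members were called (C8a, Fga and Fgb), and without the 18 h FFPE liver array 2 (C8a and Kng1).

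Preservation with its kit moved most genes on the array, and the members with them. In liver 7 members were higher and 15 lower in FFPE (62.9%, against 71.2% of all genes, 27.8% higher and 43.5% lower). F7 measured 8.83, 8.63 and 8.51 in FF liver and 7.01, 6.83 and 6.62 in FFPE liver, a difference of -1.84 ± 0.13 (SE, limma, adjusted p = 1.02e-07). F12 measured 9.13, 9.21 and 9.37 in FF liver and 7.88, 8.13 and 7.68 in FFPE liver, a difference of -1.34 ± 0.14 (adjusted p = 2.62e-06). In both genes no FFPE liver array reached an FF liver array.
F9 was lower by 1.04 in FFPE liver (-1.04 ± 0.11, adjusted p = 2.9e-06), and so was Plg (-0.93 ± 0.18, adjusted p = 0.000575). The largest increases were Masp2 (1.08 ± 0.13, adjusted p = 8.84e-06), Mbl2 (0.60 ± 0.12, adjusted p = 0.000791), Serpind1 (0.45 ± 0.16, adjusted p = 0.0202) and Cfp (0.35 ± 0.12, adjusted p = 0.0209). Fibrinogen did not pass the test in liver, with 0.10 ± 0.23 for Fga, -0.05 ± 0.18 for Fgb and -0.06 ± 0.17 for Fgg. F7 and F10, 1.5 kb apart on chromosome 8, had different values, -1.84 for F7 and 0.21 ± 0.13 for F10 (adjusted p = 0.156).
Probe sets of the same gene could differ as much as genes did. The other sets of F10 gave -1.21 and -1.94 in FFPE against FF liver, that of Masp2 -0.55, that of Kng1 -0.55 beside 0.27, and that of Vtn 0.80 beside -0.07. Without either of the 3 h liver arrays, 13 members were called, and neither Cfp (adjusted p = 0.204) nor Serpind1 (adjusted p = 0.0575) was among them. Serpind1 was also lost without either 0 h liver array (adjusted p = 0.106), and with the mean of its probe sets Masp2 was 0.27.

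In brain 14 members were higher and 7 lower in FFPE (60%, against 81.8% of all genes, 28.4% higher and 53.4% lower). Most members lay near background there, 22 having been kept through liver alone, and the FFPE brain arrays had higher medians (4.87 to 4.89) than the FF ones (4.67 to 4.68), so nothing is read from that count. Quantile normalization moved the median of all genes by 0.304. C8b was highest in this comparison, at 4.42, 4.13 and 4.09 in FF brain and 6.67, 6.42 and 6.33 in FFPE brain, a difference of 2.26 ± 0.12 (limma, adjusted p = 2.46e-09). F10, factor X, measured 3.69, 3.67 and 3.72 in FF brain and 5.25, 4.63 and 4.85 in FFPE brain, a difference of 1.22 ± 0.13 (adjusted p = 1.5e-06). All FFPE arrays stood above all FF arrays for both.
Serpind1 was higher by 1.06 ± 0.16 (adjusted p = 3.27e-05) and Masp1 by 1.04 ± 0.12 (adjusted p = 3.96e-06). With the mean of all probe sets F10 was 0.8 and Masp1 0.35. Of the 4 members at or above the median in all 6 brain arrays, Vtn and C4b were lower, at -1.68 ± 0.12 (adjusted p = 4.8e-08) and -1.18 ± 0.12 (adjusted p = 9.04e-07), or -0.89 and -0.71 after quantile normalization. Pros1 was higher, at 0.80 ± 0.14, and Cfp measured 0.24 ± 0.12 (adjusted p = 0.0841). F2 at -0.81 ± 0.21 (adjusted p = 0.00311) and Fga at -0.67 ± 0.23 (adjusted p = 0.0169) were widest between the 0 h arrays, at -1.64 and -1.69. Without either 0 h brain array F2 was -0.39 (adjusted p = 0.0488), and Fga was no longer called (adjusted p = 0.31).

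Of 55 other complement and coagulation genes listed beside the members, 45 were measured and 35 tested. At 3 h in liver 5 of them fell: Vsig4, the complement receptor of Kupffer cells (-1.91 ± 0.21, adjusted p = 0.00322), the 3 chains of C1q, which macrophages make (C1qc -1.49 ± 0.18, C1qb -1.26 ± 0.20 and C1qa -1.20 ± 0.21, adjusted p = 0.00453, 0.0213 and 0.0458), and the ficolin Fcna. Over all genes, 0.168% were lower at 3 h in liver. Vsig4 and Fcna are also on the Kupffer marker list. At 18 h in liver 3 rose, Colec11, a collectin (1.08 ± 0.24, adjusted p = 0.00977), Cd55, which speeds the decay of convertases (0.57 ± 0.14, adjusted p = 0.0161), and Procr, the protein C receptor (0.48 ± 0.14, adjusted p = 0.0322). Another 6 fell, led by Tfpi2 (-0.90 ± 0.25, adjusted p = 0.0297), Vsig4 (-0.88 ± 0.21, adjusted p = 0.0137), C4bp, the C4b-binding protein (-0.77 ± 0.14, adjusted p = 0.00338), and C1qc (-0.75 ± 0.18, adjusted p = 0.0152). Over all genes, 3.61% were higher and 10.9% lower at 18 h in liver. In brain none of the 35 other genes passed at either time, against 0.0765% of all genes at 3 h and 0.0306% at 18 h. In FFPE against FF, 3 were higher and 21 lower in liver, and 11 higher and 14 lower in brain. Of all genes, 27.8% were higher and 43.5% lower in liver, and 28.4% higher and 53.4% lower in brain.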

How the data were processed

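The 12 conditions were each profiled on 1 array, and GEO's labels gave tissue, preservation and time. The deposited values are log2 intensities from RMA, run by the authors with Affymetrix Expression Console (named in the submitters' processing notes); whether all arrays went through it together is not given in the sources used here. Of 45141 probe sets, 28898 were paired with 1 gene, and the set of greatest average over all 12 arrays stood for its gene (17097 genes). The 13073 genes that reached the median of 3 or more arrays were tested.

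Testing used limma 3.58.1 under R 4.3.3 (lmFit and eBayes, two-sided, Benjamini-Hochberg adjustment over all genes tested, threshold 0.05). The model held 4 tissue by preservation means plus, per tissue, a term for 3 h and a term for 18 h, which makes 8 coefficients and leaves 4 residual degrees of freedom; p-values measure the disagreement between arrays, not between animals; precision is limited by how few arrays there are. On simulated arrays, 2-fold changes in 200 of 13073 genes were recovered at 92.5% for liver at 3 h, 91.5% for liver at 18 h, 93.5% for brain at 3 h, 91.5% for brain at 18 h, 97.5% for FFPE against FF in liver and 98% in brain. The simulated time changes were equal in FF and FFPE, and noise was drawn separately for each gene and array. Recovery where the preservations disagree, or where a whole array deviates, was therefore not measured.

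The members and all lists were chosen with earlier results of these data known. In each comparison the 4 largest called increases and decreases were given in full. Fga, Fgb, Fgg, F2, Serpinc1, C9, Mbl1, Mbl2 and Cfp were given in every array; of the other pathway genes up to 4 per comparison were named, by size, as were genes singled out after their values were seen (such as C8a, F5, Vtn, Fcna, Alb, Apoa1, Apob, Kcnj13 and Ttr). Alternatives were the mean of all probe sets, no filter, quantile normalization, robust or trended eBayes, the 6 arrays of the tissue or preservation, leaving out each array and, added after seeing the data, every probe set alone. Sequences and neighbours came from RefSeq tables of GRCm38.p6.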

Additional observations from a re-analysis of the deposited data

Results flagged for a closer look

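The values here were set apart because the same contrast gave different results in liver and in brain by a test of that difference (limma, adjusted over all genes tested). For C8a, the change at 18 h was higher in liver than in brain by 1.31. C8a reached the array median in 1 of the 6 brain arrays, and its call was absent without the 0 h FF, 18 h FF or 18 h FFPE brain array. For the FFPE against FF difference, liver minus brain was -2.69 for F7, -1.99 for F12, -1.91 for C8b and -1.32 for F9. It was 1.61 for Vtn, 0.91 for Masp2 and 0.85 for C4b. F7, F9 and Masp2 were below the array median in all 6 brain arrays, and F12 and C8b in every FF brain array. C4b was 0.36 (adjusted p = 0.0998) after quantile normalization. The second probe set of Vtn gave 1.82 and that of Masp2 gave -3.00 for the same quantity.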

How the results depend on the processing

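With 1 array per condition, leaving out each array was the main test of stability. The counts of members called then ran from 0 to 6 for liver at 18 h, 0 to 2 for 18 h against 3 h in liver, 0 to 3 for brain at 3 h and at 18 h, 0 to 1 for the liver minus brain change at 3 h and 0 to 3 at 18 h, 13 to 21 for FFPE against FF in liver, 20 to 21 in brain and 18 to 20 for its liver minus brain difference. They stayed at 0 to 0 for liver at 3 h and 35 to 35 for liver against brain. The filter largely fixed the latter count, since 22 members were kept through liver alone, so its steadiness is no evidence about the set. For 18 h in liver the count of 5 lower became 2 after quantile normalization, 1 lower (C8g) and 1 higher (C8a), and 1 from the 6 liver arrays alone. For 18 h against 3 h it went from 2 to 1 without the filter and to 0 under quantile normalization or the 6 liver arrays alone. For liver minus brain in the FFPE against FF difference, Masp2 reversed from 0.91 to -1.04 with the mean of all probe sets. The causes were not tested. The spread between FF and FFPE arrays gave a median SE of 0.159 for a member's time change in liver. The smallest such change called was F13b at -0.53, while C8a at 0.55 was not called. The SE differed between genes, so size alone did not decide a call, and small changes may have been missed. Brain values near the array median sit close to background.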
